A study of Mus musculus with 12 samples.

Results

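The NF-kB feedback genes followed here in mouse liver are *Nfkbia*, *Nfkbiz*, *Bcl3*, *Tnfaip3*, *Birc3*, *Nfkb1*, *Nfkb2*, *Relb*, *Tnfrsf1a* and *Icam1*. They were found by gene symbol in the expression table, where all 10 were present among 45777 genes, and all 10 passed the filter on low counts in every comparison. Liver RNA had been sequenced from 12 male C57BL/6 mice aged 10 to 12 weeks, 3 in each of 4 groups. The groups were wild-type (WT) mice given vehicle, WT mice given acetaminophen (APAP), *Gna12* knockout (KO) mice given vehicle and *Gna12* KO mice given APAP. *Gna12* encodes Gα12, a heterotrimeric G protein subunit, and the WT mice were age-matched littermates of the KO mice. APAP is an analgesic that injures hepatocytes in overdose. By the study's methods it was injected once into the peritoneum at 300 mg/kg after an overnight fast, and livers were taken 6 h later.

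The KO label was not borne out by the transcript it names. *Gna12* ranged from 23.7 to 66.7 CPM (counts relative to the library total, with totals scaled by TMM) over the 6 WT livers. Over the 6 livers labelled KO it ranged from 43.5 to 67.2 CPM. The groups are therefore called WT and KO label here, and within these data the direction of any genotype contrast rests on the labels. The study itself reported PCR of tail DNA and liver qRT-PCR for *Gna12*, and immunoblots for Gα12, in WT and KO mice. Whether those mice were the sequenced ones is not stated in the sources used here. Which exons carry the reads was not analysed here. Library totals ranged from 49737950 to 69566079 counts. The hepatocyte markers (*Alb*, *Apoa1*, *Ttr*, *Serpina1a*, *Cyp2e1* and *Hnf4a*) had counts in all 12 libraries and together reached at least 67177 CPM in each. A pair of WT libraries stood apart. WT vehicle replicate 2 was high in acute-phase transcripts, with 4788 CPM of *Saa1* against at most 86.6 CPM in the other 5 vehicle livers (*Saa1* was chosen after its values were seen), and a summed neutrophil marker level of 18.0 CPM against at most 2.52 CPM. WT APAP replicate 1 had a summed erythroid marker level of 17366 CPM, with 253 to 749 CPM in the other 11 libraries, and a summed neutrophil marker level of 125 CPM, with at most 20.8 CPM elsewhere. It was also the highest library in the sums of hepatocyte (133751 CPM), stellate cell (480 CPM) and monocyte (18.9 CPM) markers. The same held for sinusoidal endothelial (308 CPM), cholangiocyte (40.3 CPM) and lymphocyte (5.68 CPM) markers. Kupffer cell markers, at 169 CPM, were higher in KO label vehicle replicate 1 (183 CPM). The part of library scaling in these sums was not tested. In whole liver, a change in the number of cells of a type and a change in RNA per cell cannot be told apart.

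NF-kB is a family of dimeric transcription factors built from Rel proteins. In resting cells most dimers are held in the cytoplasm by inhibitor (IkB) proteins, and signals from TNF, interleukin-1 or Toll-like receptors activate the IKK kinases, which mark IkB for destruction and let the dimers enter the nucleus. Among the first genes that the dimers then switch on are their own inhibitors, such as IkBα (*Nfkbia*) and the ubiquitin-editing enzyme A20 (*Tnfaip3*), so that the pathway shuts itself down, while a slower, non-canonical arm works through NIK, p100 (*Nfkb2*) and RelB. In liver the pathway is known for guarding hepatocytes against TNF-induced death and for driving cytokine production in Kupffer cells.

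Promoter stretches with the letters that NF-kB dimers are known to recognise are shown here because control of a gene by NF-kB itself is what the word feedback refers to. RefSeq promoter windows of the GRCm38.p6 assembly, which run from 250 bases before to 50 bases after a transcript start, were held for 7 of the 10 genes (*Nfkbia*, *Tnfaip3*, *Nfkb2*, *Bcl3*, *Birc3*, *Icam1* and *Tnfrsf1a*). They were searched on both strands for the kappa B consensus, which was present at 4 of these 7 genes, *Nfkbia*, *Tnfaip3*, *Nfkb2* and *Bcl3*, and at 2581 of the 27025 genes in the promoter table (9.55%). One stretch with matches is printed for each of the 4 genes, 5′ to 3′ on the gene's own strand, with the matched letters in capitals. They are the last 100 bases before the *Nfkbia* start at chr12:55492648-55492747 (minus strand) and the last 100 bases before the most upstream of the 3 *Nfkb2* starts in the promoter table at chr19:46304637-46304736 (plus strand). The others are the last 150 bases before the upstream one of the 2 *Tnfaip3* starts at chr10:19015411-19015560 (minus strand), and 29 bases around the *Bcl3* start at chr7:19822736-19822764 (minus strand).
Nfkbia: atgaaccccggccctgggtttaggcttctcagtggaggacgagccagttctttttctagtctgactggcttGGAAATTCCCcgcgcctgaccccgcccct
Nfkb2: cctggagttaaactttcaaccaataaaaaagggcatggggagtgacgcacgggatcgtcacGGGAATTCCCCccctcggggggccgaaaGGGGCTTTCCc
Tnfaip3: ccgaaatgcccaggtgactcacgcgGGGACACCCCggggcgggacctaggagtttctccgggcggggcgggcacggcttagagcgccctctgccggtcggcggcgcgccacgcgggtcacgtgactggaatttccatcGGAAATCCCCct
Bcl3: gtcggcggcagGGGAAGTCCCgctgcccg

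In *Nfkbia* the match lay at bases -29 to -20 from the start. The *Nfkb2* stretch held overlapping matches at -39 to -30 and -38 to -29 and a further match at -11 to -2. Matches not printed lay at -236 to -227 and at 11 to 20 from the next *Nfkb2* start in the table, and the second of these is also inside the window of the last start, at -225 to -216. The *Tnfaip3* stretch held matches at -125 to -116 and -12 to -3, and the window of the other *Tnfaip3* start held no match. The *Bcl3* match lay just inside the transcript, at 3 to 12. The AP-1 motif TGANTCA, searched in the same way, was present at 2 of the 7 genes (*Tnfaip3* at -136 to -130, and *Nfkb2* at -210 to -204 from the second start in the table, both without overlap with a kappa B match) and at 2425 of the 27025 genes (8.97%). A match of letters is a description of the window and does not show that a factor was bound in these livers.

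Levels of the 10 genes spanned a wide range when compared per transcript length. Over the 6 vehicle livers the median level was 41.9 TPM (a level corrected for transcript length and library total) for *Tnfrsf1a* and 37.5 TPM for *Nfkbia*, followed by *Bcl3* (14.8 TPM), *Nfkb1* (7.20 TPM), *Nfkbiz* (5.41 TPM), *Birc3* (5.27 TPM), *Icam1* (3.74 TPM), *Nfkb2* (2.85 TPM), *Tnfaip3* (0.991 TPM) and *Relb* (0.643 TPM). Neighbours in this order were separated in all 6 vehicle livers only for *Bcl3* over *Nfkb1* and for *Nfkb2* over *Tnfaip3*. Over the 6 APAP livers *Nfkbiz* stood at 31.2 TPM and *Bcl3* at 47.5 TPM, and the order became *Tnfrsf1a*, *Bcl3*, *Nfkbia*, *Nfkbiz*, *Nfkb1*, *Icam1*, *Birc3*, *Nfkb2*, *Tnfaip3* and *Relb*. There *Tnfrsf1a* over *Bcl3*, *Nfkbiz* over *Nfkb1* and *Birc3* over *Nfkb2* held in all 6 livers. The other neighbours could not be ranked within their spread. TPM values of WT APAP replicate 1 were low for most genes, with a median over tested genes of 2.27 TPM against 3.09 to 4.93 TPM in the other libraries.

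**Figure D1:**
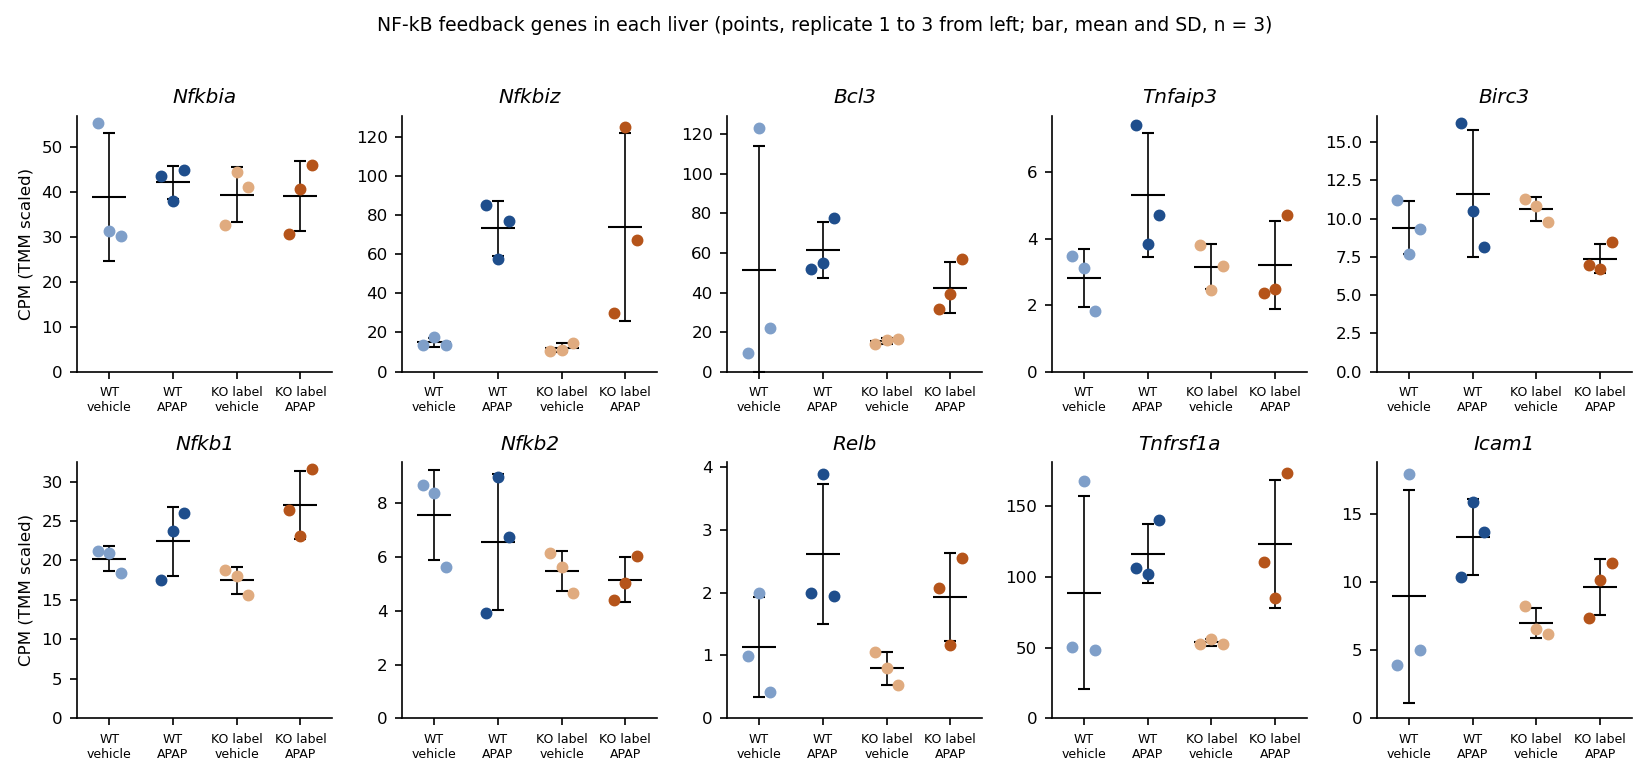
Levels of the 10 NF-kB feedback genes in CPM (y axis, linear, from 0) in each liver of the 4 groups (x axis), with replicates 1 to 3 from left to right and the mean and SD of 3 livers as a bar, whose lower end is drawn no lower than 0. *Nfkbiz* is higher in each APAP liver (29.7 CPM or more) than in each vehicle liver (17.6 CPM or less), whereas *Bcl3*, *Tnfrsf1a* and *Icam1* each have 1 high WT vehicle liver, replicate 2.

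APAP was compared with vehicle within WT, within the KO label and over both labels together, by edgeR's quasi-likelihood test with Benjamini-Hochberg adjusted p-values over all genes tested. One of the 10 genes, *Nfkbiz*, rose in every one of these comparisons. In WT it was the 1 gene of the 10 that passed an adjusted p of 0.05, where 1.62% of all genes tested (255) rose. That number over all genes was 42 without WT vehicle replicate 1, 41 without WT vehicle replicate 3 and 67 without WT APAP replicate 3. With the KO label 5 genes rose (*Nfkbiz*, *Bcl3*, *Tnfrsf1a*, *Relb* and *Nfkb1*) and *Birc3* fell, where 13% of all genes rose and 9.6% fell. Over both labels *Nfkbiz*, *Relb* and *Nfkb1* rose and none of the 10 fell, where 14% of all genes rose and 11.4% fell. The median log2 fold change of the 10 genes was 0.36 in WT, 0.55 under the KO label and 0.49 over both, beside 0.03, -0.02 and 0.01 for all genes tested. The 10 genes were chosen with earlier results of these data known, so these medians are a description. The comparison over both labels holds the same livers as the other 2, so its values are not separate evidence.

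**Figure D2:**
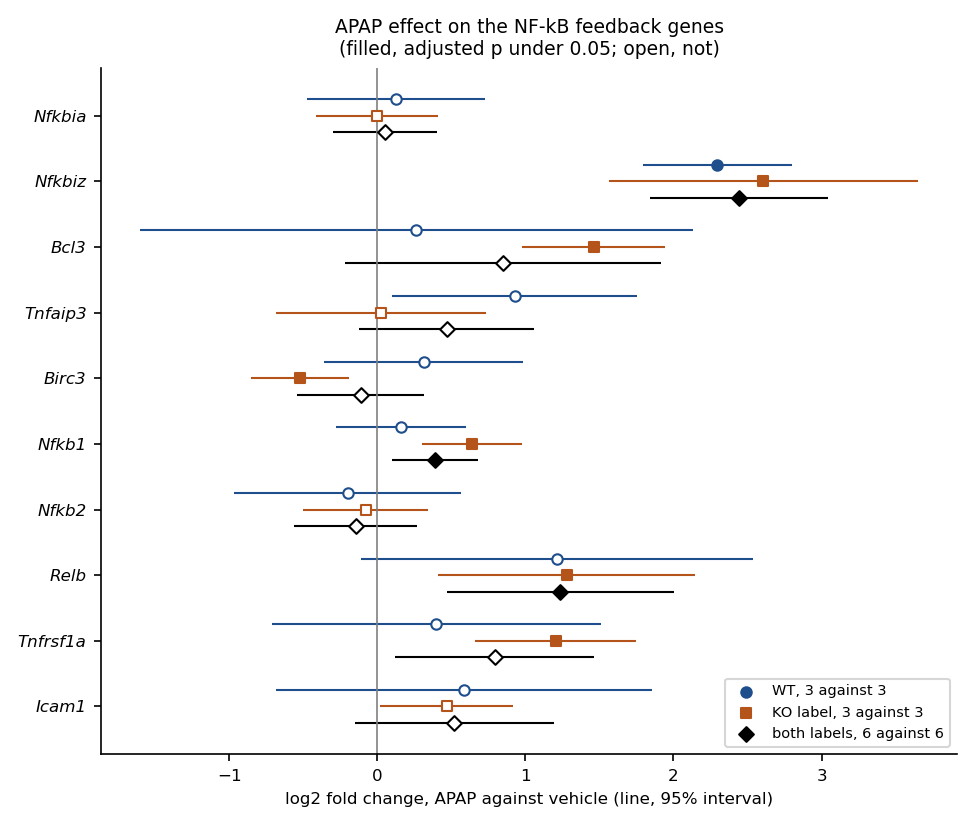
Log2 fold change of APAP against vehicle (x axis) for each of the 10 genes (y axis) in WT, under the KO label and over both labels, with 95% intervals as lines and filled symbols where the adjusted p from edgeR is under 0.05. *Nfkbiz* is filled in all 3 comparisons, and the WT intervals of *Bcl3*, *Icam1* and *Tnfrsf1a* are wide and include 0.

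IkBα, the cytoplasmic inhibitor encoded by *Nfkbia* (gene ID 18035, chr12:55489409-55492647, GRCm38), did not differ detectably. It measured 55.3, 31.2 and 30.1 CPM in the WT vehicle livers and 43.5, 37.9 and 44.9 CPM in the WT APAP livers, and 32.5, 44.4 and 41.0 CPM with vehicle and 30.6, 40.6 and 45.9 CPM with APAP under the KO label. Vehicle and APAP livers overlapped within both labels. Over both labels the log2 fold change was 0.05 ± 0.16 (SE, 6 against 6 livers, adjusted p = 0.847, edgeR), with a 95% interval from -0.30 to 0.40. Within WT the log2 fold change was 0.12 (95% interval -0.48 to 0.73) and under the KO label it was -0.00027 (95% interval -0.41 to 0.41).

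IkBζ, a nuclear IkB protein that acts as a cofactor for a subset of NF-kB targets, is encoded by *Nfkbiz* (gene ID 80859, chr16:55811375-55838954). The WT vehicle livers held 13.8, 17.6 and 13.5 CPM and the WT APAP livers 85.0, 57.5 and 76.8 CPM. With the KO label the values were 10.5, 11.3 and 14.8 CPM after vehicle and 29.7, 125 and 67.1 CPM after APAP. Every APAP liver lay above every vehicle liver, which 7.11% of all genes tested also showed in this direction over the 6 against 6 livers. The increase was 4.91-fold in WT (log2 fold change 2.30 ± 0.22, SE, adjusted p = 0.00659, edgeR) and 6.10-fold under the KO label (2.61 ± 0.46, adjusted p = 0.00639). Over both labels *Nfkbiz* rose 5.44-fold (log2 fold change 2.44 ± 0.28, adjusted p = 7.61e-05). The APAP livers varied most under the KO label, where replicate 1 was the lowest and replicate 2 the highest of all 6.

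BCL-3, the second nuclear IkB protein, binds p50 and p52 homodimers and is encoded by *Bcl3* (gene ID 12051, chr7:19808462-19822824). Under the KO label it measured 14.0, 16.1 and 16.6 CPM with vehicle and 31.7, 39.1 and 56.8 CPM with APAP, without overlap, and it rose 2.75-fold (log2 fold change 1.46 ± 0.21, adjusted p = 0.00328, edgeR). In WT the vehicle livers held 9.37, 123 and 21.9 CPM, and the APAP livers 51.7, 54.8 and 77.6 CPM. Replicate 2 of the WT vehicle livers was thus the highest of all 12. With it, the WT log2 fold change was 0.26 ± 0.80 (adjusted p = 0.895) and that over both labels 0.85 ± 0.49 (adjusted p = 0.234). Without it, the WT value was 1.97 ± 0.41 (adjusted p = 0.0718), with 2 vehicle livers left, and the value over both labels 1.68 ± 0.24 (adjusted p = 0.000449). *Bcl3* overlaps a pair of antisense genes, *Gm16175* and *Gm16174*, and whether the counting used strand is not stated, so reads of the partners cannot be told apart.

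A20, the ubiquitin-editing enzyme that ends TNF and Toll-like receptor signals upstream of IKK, is encoded by *Tnfaip3* (gene ID 21929, chr10:19000910-19015410). The WT vehicle livers had 3.49, 3.12 and 1.84 CPM and the WT APAP livers 7.43, 3.84 and 4.71 CPM, without overlap between the groups, as for 12.9% of all genes tested in this direction. The log2 fold change of 0.93 ± 0.36 did not pass after adjustment (adjusted p = 0.229, edgeR). In livers with the KO label *Tnfaip3* measured 3.83, 2.47 and 3.18 CPM with vehicle and 2.38, 2.49 and 4.73 CPM with APAP, which overlapped (log2 fold change 0.03 ± 0.31, adjusted p = 0.962). In CPM its highest value was in WT APAP replicate 1, the library with a neutrophil marker sum of 125 CPM. In TPM that library (1.67 TPM) lay below WT APAP replicate 3 (1.75 TPM) and KO label APAP replicate 3 (2.03 TPM). The WT log2 fold change without WT APAP replicate 1 was 0.60 ± 0.32 (adjusted p = 0.383, edgeR). The part of neutrophils in the value was not tested.

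cIAP2, a ubiquitin ligase of the TNF receptor complex that restrains the non-canonical arm, is encoded by *Birc3* (gene ID 11796, chr9:7847468-7873205). It was the 1 gene of the 10 that fell anywhere: under the KO label it measured 11.3, 10.8 and 9.77 CPM with vehicle and 6.98, 6.68 and 8.44 CPM with APAP, without overlap. The log2 fold change was -0.52 ± 0.14 (adjusted p = 0.0344, edgeR), and groups lay apart in this direction for 21.1% of all genes tested. In WT the vehicle livers had 11.2, 7.71 and 9.32 CPM and the APAP livers 16.2, 10.5 and 8.16 CPM, which overlapped (log2 fold change 0.31 ± 0.29, adjusted p = 0.607). In CPM the highest of these was again WT APAP replicate 1, and without it the WT value was -0.01 ± 0.22. In TPM that library (5.42 TPM) lay below WT APAP replicate 2 (6.49 TPM) and WT vehicle replicate 1 (6.46 TPM). The fall under the KO label lost its call in 5 of the 6 fits that left out 1 liver each, with adjusted p from 0.0356 to 0.116.

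The Rel subunits moved unequally. p105, the precursor of p50 and itself an IkB-like inhibitor, is encoded by *Nfkb1* (gene ID 18033, chr3:135584655-135691969). It measured 18.8, 18.0 and 15.6 CPM with vehicle and 26.4, 23.1 and 31.6 CPM with APAP under the KO label, without overlap (log2 fold change 0.64 ± 0.15, adjusted p = 0.0178, edgeR). In WT it measured 21.2, 21.0 and 18.4 CPM with vehicle and 17.5, 23.8 and 26.0 CPM with APAP, and the groups overlapped because WT APAP replicate 1 was below all 3 vehicle livers (log2 fold change 0.16 ± 0.19, adjusted p = 0.697). Over both labels it rose 1.31-fold (log2 fold change 0.39 ± 0.13, adjusted p = 0.0490), a call that 9 of the 12 fits without 1 liver did not keep, with adjusted p from 0.00705 to 0.113. The TEC gene *Gm43430* lies on the same strand within *Nfkb1*, and reads could be shared between them.

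RelB, the Rel subunit that pairs with p52 in the non-canonical arm, is encoded by *Relb* (gene ID 19698, chr7:19606217-19629438) and had the lowest median level of the 10, with 21 to 95 counts in the vehicle libraries and 73 to 293 counts in the APAP libraries. It measured 0.995, 1.99 and 0.419 CPM with vehicle and 1.99, 3.89 and 1.94 CPM with APAP in WT, which overlapped. Under the KO label it measured 1.06, 0.798 and 0.530 CPM with vehicle and 2.08, 1.17 and 2.55 CPM with APAP, which did not overlap. *Relb* rose 2.36-fold over both labels (log2 fold change 1.24 ± 0.35, adjusted p = 0.0217, edgeR) and 2.43-fold under the KO label (1.28 ± 0.38, adjusted p = 0.0435). In WT the estimate was of like size, 1.21 ± 0.57, and did not pass (adjusted p = 0.319). Without KO label APAP replicate 3 the value over both labels was 1.13 ± 0.37 (adjusted p = 0.0544), and under the KO label 4 of the 6 fits without 1 liver did not keep the call.

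p100, the precursor of p52 and an inhibitor of RelB, is encoded by *Nfkb2* (gene ID 18034, chr19:46300994-46312400). Its values were 8.70, 8.38 and 5.63 CPM in WT with vehicle and 3.93, 8.97 and 6.74 CPM in WT with APAP, and 6.15, 5.63 and 4.66 CPM and 4.39, 5.04 and 6.05 CPM under the KO label. Vehicle and APAP livers overlapped within both labels, and the lowest value of all was that of WT APAP replicate 1. The log2 fold change was -0.20 ± 0.33 in WT (adjusted p = 0.787, edgeR) and -0.08 ± 0.18 under the KO label (adjusted p = 0.792). Over both labels it was -0.15 ± 0.19 (adjusted p = 0.619, edgeR, 95% interval -0.56 to 0.27). *Nfkb2* overlaps *Psd* and a divergent noncoding gene on the opposite strand.

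TNF receptor 1, through which TNF activates the pathway, is encoded by *Tnfrsf1a* (gene ID 21937, chr6:125349723-125362483). In livers labelled KO it measured 52.3, 56.3 and 52.5 CPM with vehicle and 110.4, 85.3 and 173 CPM with APAP, without overlap, and rose 2.30-fold (log2 fold change 1.20 ± 0.24, adjusted p = 0.00995, edgeR). The WT vehicle livers held 50.3, 168 and 48.2 CPM, and the WT APAP livers 107, 102 and 140.1 CPM. Apart from WT vehicle replicate 2, the 5 vehicle livers of both labels lay between 48.2 and 56.3 CPM, below all 6 APAP livers. With that library the log2 fold change was 0.40 ± 0.48 in WT (adjusted p = 0.697) and 0.79 ± 0.31 over both labels (adjusted p = 0.0803). Without it the values were 1.24 ± 0.22 (adjusted p = 0.0564) and 1.21 ± 0.17 (adjusted p = 0.000369). Over both labels *Tnfrsf1a* was called in 4 of 20 alternatives, not all of which left out a liver.

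ICAM-1, the adhesion molecule that leukocytes bind on endothelium and a classical NF-kB target, is encoded by *Icam1* (gene ID 15894, chr9:21015940-21028814). It measured 3.91, 18.0 and 4.99 CPM with vehicle and 10.4, 15.9 and 13.7 CPM with APAP in WT, and 8.28, 6.58 and 6.23 CPM with vehicle and 7.38, 10.2 and 11.4 CPM with APAP under the KO label. Groups overlapped within both labels, in WT through vehicle replicate 2 alone. The log2 fold change was 0.59 ± 0.55 in WT (adjusted p = 0.612, edgeR), 0.47 ± 0.20 under the KO label (adjusted p = 0.124) and 0.52 ± 0.31 over both (adjusted p = 0.250). Leaving out WT vehicle replicate 2, the WT value was 1.59 ± 0.27 (adjusted p = 0.0507) and the value over both labels 0.94 ± 0.23 (adjusted p = 0.0109). The antisense gene *Gm47079* overlaps *Icam1*.

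Among livers labelled KO, 5 of the 10 genes had all APAP livers above all vehicle livers and *Birc3* had them below, against 21.8% and 21.1% of all genes tested. Of the 10 genes, 5 had their highest vehicle value in WT vehicle replicate 2 (*Bcl3*, *Tnfrsf1a*, *Icam1*, *Relb* and *Nfkbiz*), as did 23.5% of all genes tested. Its *Bcl3* level was 7.91 times the mean of the other 5 vehicle livers, that of *Tnfrsf1a* 3.23 times and that of *Icam1* 3.00 times, while *Nfkbiz*, at 1.38 times, stayed below every APAP liver. *Nfkbia* in this liver was 0.767 and *Tnfaip3* 1.05 times the mean of the others. Without this library 6 of the 10 genes rose over both labels (*Bcl3*, *Tnfrsf1a* and *Icam1* beside the other 3), where 15.2% of all genes rose and 12.3% fell. In the other 11 fits without 1 liver, *Bcl3*, *Tnfrsf1a* and *Icam1* were not called. The library left out here holds the highest vehicle value of each, so leaving it out lowers their vehicle mean by itself. These 3 calls are therefore no separate evidence of a rise. Leaving out WT APAP replicate 1 as well, the same 6 rose and *Birc3* fell (log2 fold change -0.36 ± 0.13, adjusted p = 0.0458, edgeR), where 18.4% of all genes rose and 14.9% fell.

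**Figure D3:**
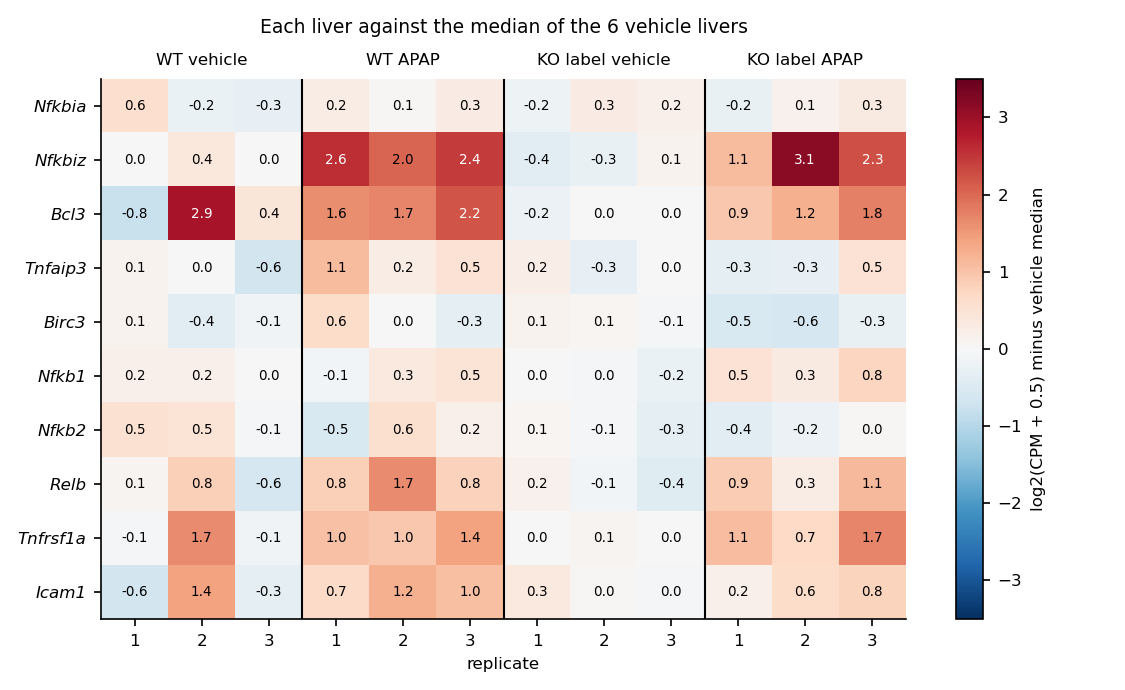
Each gene (rows) in each liver (columns, by group and replicate), as the difference of log2(CPM + 0.5) from the median of the 6 vehicle livers, in red where higher and blue where lower. In the *Bcl3*, *Tnfrsf1a* and *Icam1* rows WT vehicle replicate 2 is as red as or redder than most APAP livers, whereas in the *Nfkbiz* row the vehicle livers lie within 0.36 of the median and the APAP livers at 1.09 or more above it.

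Whether the genotype label altered these genes was asked with WT against KO label after APAP, with the same contrast after vehicle, and with the interaction of label and treatment. None of the 10 genes passed in any of them by edgeR or by DESeq2, and 1 of them, *Birc3*, was under 0.05 before adjustment, after APAP and in the interaction. These contrasts called few genes at all: 0.0309% of all genes tested after APAP, 0.0262% after vehicle and 0% in the interaction, and 3.31%, 7.56% and 5.14% were under 0.05 before adjustment. After APAP, the estimated log2 difference, WT minus KO label, was 0.75 ± 0.37 for *Tnfaip3*, 0.67 ± 0.27 for *Birc3*, 0.54 ± 0.26 for *Bcl3* and 0.48 ± 0.23 for *Icam1*, each with an adjusted p of 0.958 (edgeR). Without WT APAP replicate 1 the *Birc3* difference was 0.34 and that of *Tnfaip3* 0.42. The *Tnfaip3* difference was 1.14 without KO label APAP replicate 3, and that of *Bcl3* was 0.35 without WT APAP replicate 3. *Icam1* stood at 0.32 without KO label APAP replicate 1. For *Nfkbiz* the difference was -0.0011, but its 95% interval of -1.03 to 1.03 leaves room for a doubling in either direction, so equal levels are not shown. *Nfkbia* (0.12, 95% interval -0.31 to 0.56) was bounded more tightly.

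After vehicle, the largest estimate of a label difference was that of *Bcl3*, 1.73 ± 0.81 on the log2 scale (adjusted p = 0.680, edgeR), and without WT vehicle replicate 2 it was 0.0036 ± 0.32. *Tnfrsf1a* went from 0.72 ± 0.46 to -0.13 ± 0.11 and *Icam1* from 0.35 ± 0.53 to -0.67 ± 0.21 when that library was left out. The interaction estimate, the APAP effect in WT minus that under the KO label, was 0.83 ± 0.33 for *Birc3* (95% interval 0.11 to 1.56, adjusted p = 0.872), and -1.20 ± 0.94 for *Bcl3* (adjusted p = 0.878). Without WT APAP replicate 1 the *Birc3* estimate was 0.50 ± 0.25, and without WT vehicle replicate 2 that of *Bcl3* was 0.52 ± 0.46. Calls under the KO label but not in WT, such as those of *Bcl3*, *Nfkb1* and *Tnfrsf1a*, are therefore not shown to differ between the labels.

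Other genes of the pathway were counted from 7 lists, using the comparison over both labels. The lists too were chosen with earlier results of these data known, so their counts and medians are a description. Of 112 listed genes 98 were tested, of which 23 rose and 8 fell, with a median log2 fold change of 0.19, where 14% of all genes rose and 11.4% fell with a median of 0.01. These are the shares beside which each list's count over both labels stands. The counts include WT vehicle replicate 2, and without it 30 of 99 listed genes rose and 6 fell, with a median of 0.34, beside 15.2% and 12.3% of all genes. Of the 31 calls 26 held without that liver and 10 other genes were called. *Cxcl1* (268 CPM in that liver and at most 6.35 CPM in the other 5 vehicle livers) and *Lcn2* (956 CPM and at most 13.8 CPM) were among these 10, and both were chosen after their values were seen. Their calls depend on leaving out that liver. Among the Rel and IkB proteins outside the 10 genes, 3 of 6 rose. These were *Rel*, the c-Rel subunit (log2 fold change 1.11 ± 0.19, adjusted p = 0.00136, edgeR), *Rela*, the p65 subunit (0.76 ± 0.15, adjusted p = 0.00291), and *Nfkbib*, encoding IkBβ (0.57 ± 0.16, adjusted p = 0.0198). *Nfkbie* (0.17) and *Nfkbil1* (0.11) had the largest p-values of that list.

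Of 11 IKK subunits and activating kinases, 3 rose and 1 fell, beside 14% and 11.4% of all genes. *Map3k14*, encoding NIK, the kinase of the non-canonical arm, measured 2.17 to 5.22 CPM in the vehicle livers and 7.24 to 9.16 CPM in the APAP livers (log2 fold change 1.44 ± 0.19, adjusted p = 0.000231, edgeR). *Ikbkg*, encoding the scaffold NEMO, went from 89.3 to 118 CPM with vehicle to 153 to 217 CPM with APAP (0.92 ± 0.12, adjusted p = 0.000174). *Tbk1* also rose (0.67 ± 0.12, adjusted p = 0.00129), *Ikbkb*, encoding IKKβ, fell slightly (-0.27 ± 0.09, adjusted p = 0.0433), and *Chuk*, encoding IKKα, and *Map3k7*, encoding TAK1, had estimates of -0.02 each. *Map3k14*, *Ikbkg* and *Tbk1* were higher in every APAP liver than in every vehicle liver, as were 7.11% of all genes. Without WT vehicle replicate 2 *Ikbkb* did not pass (-0.24, adjusted p = 0.0789, edgeR).

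Among 18 adaptors of the TNF and Toll/interleukin-1 receptors, 2 rose (*Irak2*, 0.81 ± 0.26, and *Traf2*, 0.33 ± 0.10) and 2 fell (*Xiap*, -0.56 ± 0.14, and *Rbck1*, a subunit of the linear ubiquitin ligase, -0.37 ± 0.09), with adjusted p between 0.00767 and 0.0371 (edgeR). Each of these counts is 2 of 18, beside 14% of all genes that rose and 11.4% that fell, and *Irak2* did not pass without WT vehicle replicate 2 (0.70, adjusted p = 0.0711). Of 16 negative regulators tested outside the 10 genes, 4 rose and 1 fell, and 6 rose and 1 fell without that liver. *Zfp36*, encoding tristetraprolin, which destabilises cytokine mRNAs, had the largest rise of these (2.23 ± 0.34, adjusted p = 0.000561), and *Rnf11*, *Otulin* and *Peli1* rose by 0.54, 0.45 and 0.43. *Itch*, a ubiquitin ligase that works with A20, measured 78.0 to 103 CPM in the vehicle livers and 31.9 to 58.7 CPM in the APAP livers (-0.97 ± 0.14, adjusted p = 0.000406), without overlap, as for 5.37% of all genes in this direction.

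Ligands and receptors moved in both directions. Of 10 ligands tested, *Il1b* rose (2.29 ± 0.79, adjusted p = 0.0491, edgeR), with 13.3 CPM in WT APAP replicate 1 and at most 3.52 CPM in any other liver, while *Tnfsf10*, encoding TRAIL (-1.26 ± 0.38, adjusted p = 0.0269), and *Tnfsf12*, encoding TWEAK (-0.53 ± 0.16, adjusted p = 0.0251), fell. Of 14 receptors tested, 3 rose and *Il1rap* fell (-0.37 ± 0.13, adjusted p = 0.0478). *Tnfrsf12a*, encoding Fn14, the receptor of TWEAK, measured 3.29 to 5.91 CPM with vehicle and 54.4 to 143 CPM with APAP, and rose 21.0-fold (log2 fold change 4.39 ± 0.29, adjusted p = 1.12e-06). The other receptors that rose were *Cd14* (2.55 ± 0.55, adjusted p = 0.00495) and *Ly96* (1.22 ± 0.31, adjusted p = 0.0116), both part of lipopolysaccharide sensing. *Cd14* measured 51.8 CPM in 1 WT APAP liver and 4.44 to 13.5 CPM in the other APAP livers, which overlapped with 1.44 to 5.41 CPM after vehicle. Leaving out WT vehicle replicate 2, *Il1b* (2.09, adjusted p = 0.0999) and *Il1rap* (-0.39, adjusted p = 0.0545) did not pass. *Tlr9* (0.01) and *Cd40* (0.11) had the largest p-values among the receptors.

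Of 23 other NF-kB target genes tested, 7 rose and 1 fell (14% and 11.4% of all genes), with a median log2 fold change of 0.93, beside 0.49 for the 10 feedback genes. Without WT vehicle replicate 2, 11 of 24 rose with a median of 1.20, and *Sod2*, the 1 gene that fell with all livers (named after its values were seen), did not pass (-0.31, adjusted p = 0.0542, edgeR). *Gadd45b*, a stress-response gene, measured 1.19 to 2.85 CPM with vehicle and 13.6 to 24.3 CPM with APAP (log2 fold change 3.09 ± 0.23, adjusted p = 3.20e-06, edgeR). *Cxcl10*, a chemokine that attracts T cells, measured 0.539 to 2.38 CPM with vehicle and 3.72 to 32.5 CPM with APAP (3.61 ± 0.58, adjusted p = 0.000835), and *Ier3* rose as well (2.79 ± 0.52, adjusted p = 0.00211). *Ier3* was 0.336 to 1.89 CPM with vehicle and 2.46 to 18.3 CPM with APAP, where its median was 2.98 CPM. The neutrophil chemokine gene *Cxcl2* and the endothelial selectin gene *Sele* had 0 counts in 4 of the 6 vehicle livers each. *Cxcl2* was 0.624 to 4.65 CPM and *Sele* 0.144 to 2.72 CPM after APAP, with adjusted p of 0.00180 and 0.00275, and no fold is given for them. *Plau* (0.06) and *Il1rn* (0.04) had the largest p-values. In WT alone *Tnfrsf12a*, *Gadd45b* and *Cxcl10* were the 3 of 96 listed genes that passed, all higher, where 1.62% of all genes rose. For the KO label 23 of 93 listed genes rose and 6 fell, where 13% of all genes rose and 9.6% fell.

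**Figure D4:**
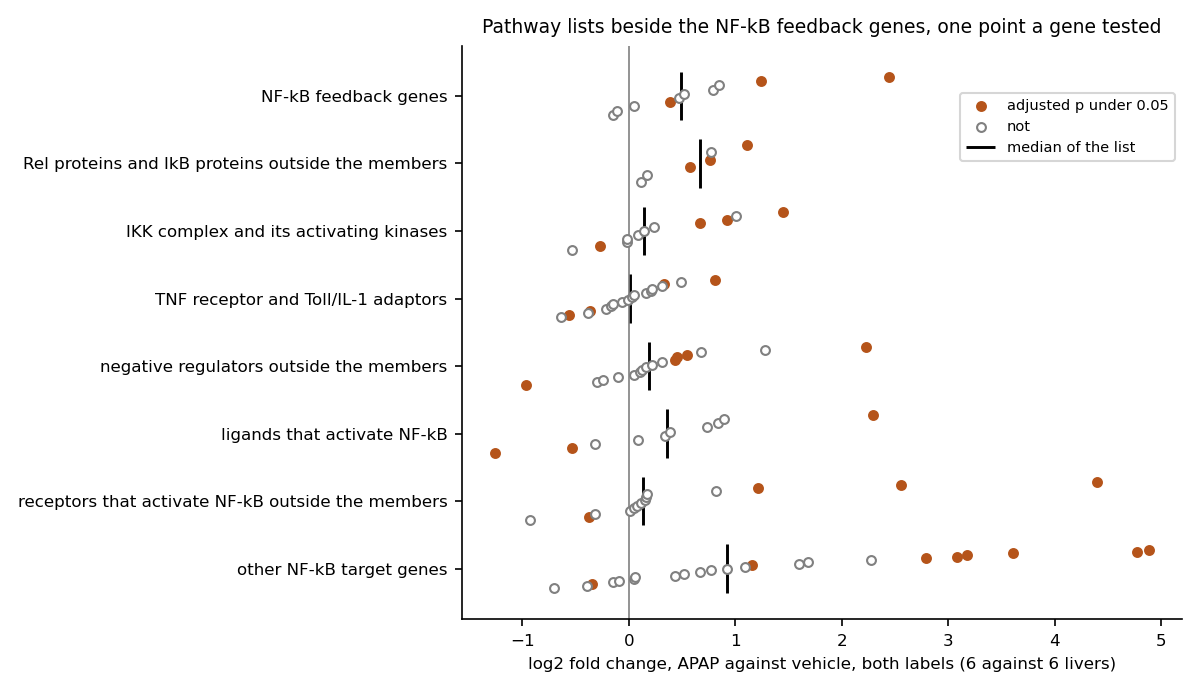
Log2 fold change of APAP against vehicle over both labels (x axis) for each gene tested in the 10 feedback genes and in 7 pathway lists (y axis), filled where the adjusted p from edgeR is under 0.05, with the median of each list as a black line. *Nfkbiz* is the highest point of the top row, and points with larger changes lie among the receptors (*Tnfrsf12a*, *Cd14*) and the other target genes.

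Cell type markers were read beside these values. The summed cholangiocyte markers were 2.57 to 7.71 CPM in the vehicle livers and 18.2 to 40.3 CPM in the APAP livers, a difference carried by *Sox9*, at 1.32 to 6.16 CPM with vehicle and 16.2 to 37.9 CPM with APAP. *Krt19* (0.151 to 0.503 CPM and 0.224 to 0.775 CPM), *Krt7* and *Epcam* overlapped between treatments, and *Cftr* was at 0 in 5 of the 12 libraries. Summed Kupffer cell markers overlapped between treatments, at 80.2 to 183 CPM with vehicle and 66.3 to 169 CPM with APAP, as did those of sinusoidal endothelial cells, at 184 to 239.5 CPM and 196 to 308 CPM. The neutrophil sum was 11.7 to 125 CPM in the WT APAP livers and 1.10 to 8.06 CPM in the KO label APAP livers, with *Mpo* at 0 in all 12 libraries and *Ly6g* at 0 in 8. *S100a8* was 1.65 to 31.7 CPM and *S100a9* 3.41 to 67.2 CPM in the WT APAP livers, beside at most 1.11 and 2.42 CPM in the KO label APAP livers. *Elane* went the other way, with at most 0.0664 CPM in the WT APAP livers and 0.245 CPM in the KO label APAP livers. The part of these cells in the changes of the feedback genes was not tested.

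The genes whose log2 CPM followed each feedback gene most closely over the 12 livers, among 10903 genes outside the 10 with a mean log2 CPM of at least 1, are given as a description. All pairs share libraries, treatment and depth. *Nfkbiz* went with *Ier2* (Pearson r = 0.98) and *Btg1* (0.98), a pair of immediate-early and growth-arrest genes. *Bcl3* went with *Tnip2* (0.97), which encodes an A20-binding protein, and *Fgb* (0.95), the fibrinogen beta chain made as an acute-phase protein, and *Icam1* with *Apcs* (0.91), serum amyloid P, and *Map3k1* (0.91). *Tnfrsf1a* went with *St3gal1* (0.98) and *Hnrnpf* (0.97), and *Nfkb1* with *Ambra1* (0.97) and *Rbbp6* (0.96). *Relb* went with *Tkt* (0.93) and *Lrrc32* (0.92), *Nfkb2* with *Mycbp2* (0.92) and *Fryl* (0.90), *Tnfaip3* with *Cmtm3* (0.90) and *Srgn* (0.88), *Nfkbia* with *Arl4d* (0.90) and *Cdk8* (0.87), and *Birc3* with *Ephx1* (0.87) and *Lamb2* (0.86). The nearest genes of *Bcl3* include one, *Tnip2*, at 17.5 CPM in WT vehicle replicate 2 and at most 4.95 CPM in the other 5 vehicle livers.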

How the data were processed

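Libraries were made from poly-A RNA of 12 livers with a stranded kit and sequenced as 100-base pairs on an Illumina NovaSeq, from RNA with an integrity number of at least 7 by the study's methods. The authors deposited read counts per gene as whole numbers, with no normalization. The authors also deposited FPKM values, scaled by transcript length and library, which entered no test here, and TPM values, used for levels between genes and for 1 alternative. The submitters' processing notes list FastQC 0.11.7, Trimmomatic 0.38, HISAT2 2.1.0, Bowtie2 2.3.4.1 and StringTie 2.1.3b and the mm10 build, and the strand setting of the counting is not given in the sources used here. Each per-sample column was assigned by its label.

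The 10 genes and the lists were chosen with earlier results of these data known. Counts were scaled by TMM and filtered with filterByExpr. The quasi-likelihood test came from edgeR 4.0.16 in R 4.3.3, and p-values were adjusted by Benjamini-Hochberg across every gene tested, with calls at an adjusted p under 0.05. Contrasts within a label or treatment used only their 6 livers. The comparison over both labels (label and treatment as terms) and the interaction used all 12. Alternatives were DESeq2 1.42.0 size factors or Wald test, no filter, at least 10 counts in every library, limma 3.58.1 on quantile-normalized log2(TPM + 1), the liver number as a block, all 12 livers in one fit, and each liver left out. Chosen after seeing the data were the newer quasi-likelihood method of edgeR, a fit without 2 libraries, and the pathway list counts without WT vehicle replicate 2. Named genes were the 10 members, up to 5 called genes with the smallest p and 2 with the largest p in each pathway list, the 2 closest genes by correlation, *Gna12* and marker genes. Replicate libraries of a group differed by far more than sampling noise, so none was counted as deposited in duplicate. Scripts were tested on simulated data. Gene positions came from the RefSeq table of GRCm38, which matched 99.8% of genes, overlapping genes from the GENCODE annotation of the same assembly, and promoter sequence from RefSeq.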

Additional observations from a re-analysis of the deposited data

How the results depend on the processing

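The rise of *Nfkbiz* after APAP kept its direction and its call in all alternatives of the 3 APAP comparisons, with log2 fold changes from 2.00 to 2.98. The number of the 10 genes called in WT was 1 in each alternative. For the KO label it was 6, and 2 with all 12 livers in one fit (*Nfkbiz* and *Nfkb1*), where the spread is shared with the WT livers, and from 3 to 5 with each liver left out in turn. It was 3 without KO label vehicle replicate 2 and 3 without KO label vehicle replicate 3. Over both labels it was 3, from 1 (without KO label APAP replicate 3) to 6 (without WT vehicle replicate 2) with each liver left out, and 7 without WT vehicle replicate 2 and WT APAP replicate 1. No alternative called any of the 10 genes in a genotype or interaction contrast.

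With the replicate block the number called was 4 under the KO label, where *Relb* (adjusted p = 0.0770) and *Birc3* (0.0756) lost their calls, and 2 over both labels, where *Nfkb1* did (0.0892). Over all genes the block took the WT calls from 255 higher and 67 lower to 61 and 1. The labels give no pairing of animals by liver number. Deviations of same-numbered livers correlated by -0.26 to 0.05, and 0 to 4 of 6 livers in a comparison were closest to their own number. The 4 of 6 was for APAP against vehicle under the KO label. With 3 livers a group these values cannot exclude a pairing. By DESeq2's Wald test 877 genes were higher and 536 lower in WT.

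Some estimates changed sign, and not all of them were near 0. For the KO label *Nfkbia* was 0.0019 without a filter and 0.0014 with at least 10 counts in every library, and *Tnfaip3* was -0.0081 on the TPM scale and -0.023 with the replicate block. After APAP the label difference of *Nfkbiz* was 0.0038 with DESeq2 size factors, 0.0039 by the Wald test, 0.15 on the TPM scale and 0.21 with the replicate block. Over both labels, without WT vehicle replicate 2 and WT APAP replicate 1, *Nfkbia* was -0.014 and *Nfkb2* 0.011. With each liver left out, the WT log2 fold change ranged from -0.052 to 0.46 for *Nfkbia*, from -0.51 to 0.054 for *Nfkb2*, from -0.24 to 1.97 for *Bcl3* and from -0.013 to 0.52 for *Birc3*. For the KO label the range was -0.13 to 0.14 for *Nfkbia*, -0.37 to 0.21 for *Tnfaip3* and -0.21 to 0.032 for *Nfkb2*, and over both labels it was -0.024 to 0.20 for *Nfkbia* and -0.26 to -0.018 for *Nfkb2*. The label difference after APAP ranged from -0.023 to 0.25 for *Nfkbia* and from -0.38 to 0.61 for *Nfkbiz*, and after vehicle from -0.67 to 0.71 for *Icam1* and from -0.13 to 1.02 for *Tnfrsf1a*. The interaction of *Bcl3*, -1.20 with all livers, ranged from -1.69 to 0.52, and that of *Tnfrsf1a*, -0.81 with all livers, from -1.10 to 0.042. Beyond the removed library itself, the cause of these changes was not tested. With 3 livers a group, the intervals given for *Nfkbia* and *Nfkb2* include both a fall and a rise, so absence of a change is not shown.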
